A study of Mus musculus with 6 samples.

Results

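Collagen genes were taken as all genes of the expression table whose name consists of Col, a type number, the letter a and a chain number, which gave 44 of 55416 genes. RNA was sequenced from satellite cells (SCs), the stem cells of skeletal muscle, in 3 libraries from WT mice and 3 libraries from *Ltf*-KO mice. The knockout is systemic and was made by CRISPR-Cas9 in C57/BL6N zygotes, with guides in introns 2 and 8 of *Ltf*, the lactoferrin gene, so all cell types of these mice carry it. SCs of both genotypes were sorted from hind leg muscle as cells without Sca1 and CD11b and with CD34 and α7-integrin. They were collected in medium with fetal bovine serum, chick embryo extract and basic fibroblast growth factor and then grown on Matrigel until day 4 with no treatment, in a growth medium whose composition is not given in the sources used here. For mice without a separately given age, as those sequenced here, the paper states 8 to 10 weeks. The labels do not say whether the 3 libraries of a genotype came from separate mice, so p-values measure only the spread between these libraries, which may be technical. Levels are in TPM, in which read numbers are corrected for transcript length and then scaled to nearly the same total in each library, here 993650 to 994356 over all 55416 genes. Levels of different genes can therefore be compared, but the depth of each library is unknown.

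*Ltf* was listed at 0.12, 0.02 and 0.02 TPM in WT and at 0.02, 0.03 and 0 TPM in *Ltf*-KO libraries. It lay near 0 in both genotypes, so it does not check the genotype labels in these cultures. The label SC was checked against 10 myogenic markers, which were all at a mean of 1 TPM or more. *Pax7*, the transcription factor that marks SCs, was at 42.4, 41.5 and 39.1 TPM in WT and at 39.0, 43.3 and 36.6 TPM in *Ltf*-KO libraries. *Myod1*, a factor of activated SCs and myoblasts, was the most abundant of the list at 748 to 816 TPM. *Myog*, a factor of differentiating myoblasts, was at 319, 410.3 and 293 TPM in WT and at 360.4, 266 and 508 TPM in *Ltf*-KO libraries, so that it was lowest in *Ltf*-KO replicate 2, where *Pax7* was highest, and highest in *Ltf*-KO replicate 3, where *Pax7* was lowest. The summed level of the list was 2247, 2354 and 2179 TPM in WT and 2278, 2190 and 2476 TPM in *Ltf*-KO libraries.

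Collagens are secreted or membrane-bound proteins whose chains wind into a triple helix, which requires glycine at regular intervals. Fibrillar collagens carry the tensile load of connective tissue, type IV collagen forms the network of basement membranes, and other types link, anchor or decorate these structures. SCs lie beneath the basement membrane of the muscle fibre, and collagens made by fibroblasts and by SCs themselves are part of this niche.

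Averaged over the 6 libraries, 10 of the 44 collagen genes reached 10 TPM, 13 lay from 1 to 10 TPM and 21 lay under 1 TPM. Their summed level was 706, 721 and 749 TPM in WT and 782, 808 and 686 TPM in *Ltf*-KO libraries, or 725 ± 21.7 and 759 ± 64.3 TPM (SD, n = 3). The *Ltf*-KO libraries held both the highest and the lowest sum, in replicates 2 and 3, where *Myog* was lowest and highest, and the ratio of the means was 1.05. The part of differentiation in the collagen sum was not tested. Collagen transcripts made up 0.0691% to 0.0813% of the summed TPM of all 55416 genes. The 5 most abundant genes, *Col5a2*, *Col3a1*, *Col18a1*, *Col4a1* and *Col4a2*, held 77.1% to 79.1% of the collagen sum in each library, and *Col5a2* alone held 35.2% to 38.5%. By role, fibrillar collagens held 59.0% to 61.8%, type IV collagens 16.4% to 18.1% and multiplexins 10.3% to 11.9%.

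**Figure D1:**
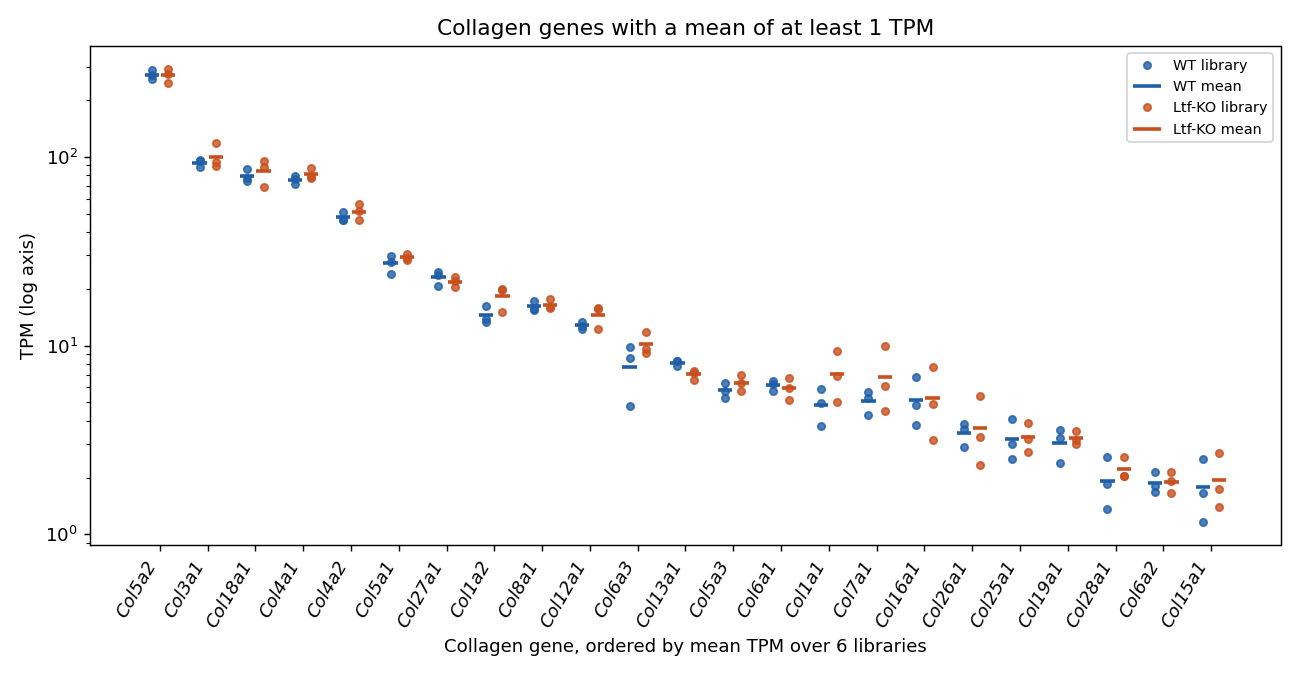
TPM on a log axis of the 23 collagen genes that averaged 1 TPM or more, ordered by mean, with a point for each WT and *Ltf*-KO library and a bar at each genotype's mean of 3 libraries. The points of the genotypes overlap for every gene but *Col13a1*, and *Col5a2* stands highest at 246 to 293 TPM.

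Expression was compared between genotypes with limma on log2(TPM + 1), a scale that understates the fold change of genes with low TPM, over the 12956 genes that averaged 1 TPM or more, of which 23 were collagen genes. The threshold was 0.05 for p-values adjusted by the Benjamini-Hochberg method over all genes tested. By limma, 0 of the 23 collagen genes passed it, with an adjusted p of 0.999 for each, and 0% of all genes tested passed it. At an unadjusted p under 0.05, 0 collagen genes were higher and 1, *Col13a1*, was lower in *Ltf*-KO SCs, while 2.01% of all genes tested were higher and 1.78% lower at this threshold. Every *Ltf*-KO library lay above every WT library for 0 of the 23 genes (4.73% of all genes tested) and below every WT library for 1 of them (3.73% of all genes tested). The fitted log2 fold change was above 0 for 18 of the 23 collagen genes, or 78.3%, compared with 55.7% of all genes tested. With median-of-ratios scaling these shares were 78.3% and 50.7%, and the median over all genes tested was 0.0013. With quantile normalization it was above 0 for 17 collagen genes, without *Col6a2*, and for 49.1% of all genes tested, whose median was -0.0020. With no filter on low levels the fold change was above 0 for 26 of all 44 collagen genes, or 59.1%, compared with 52.9% of the 26553 genes then tested. The median log2 fold change of the 23 genes was 0.091, beside 0.011 over all genes tested, and with no filter the median of all 44 was 0.013, beside 0.0048. The median of the 23 genes was 0.058 without WT replicate 3, 0.047 without *Ltf*-KO replicate 2 and 0.13 without *Ltf*-KO replicate 3, and the number of collagen genes at an unadjusted p under 0.05 was 1, 0 and 4 in these 3 fits. Leaving out WT replicate 1 or 2 also gave 0.

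**Figure D2:**
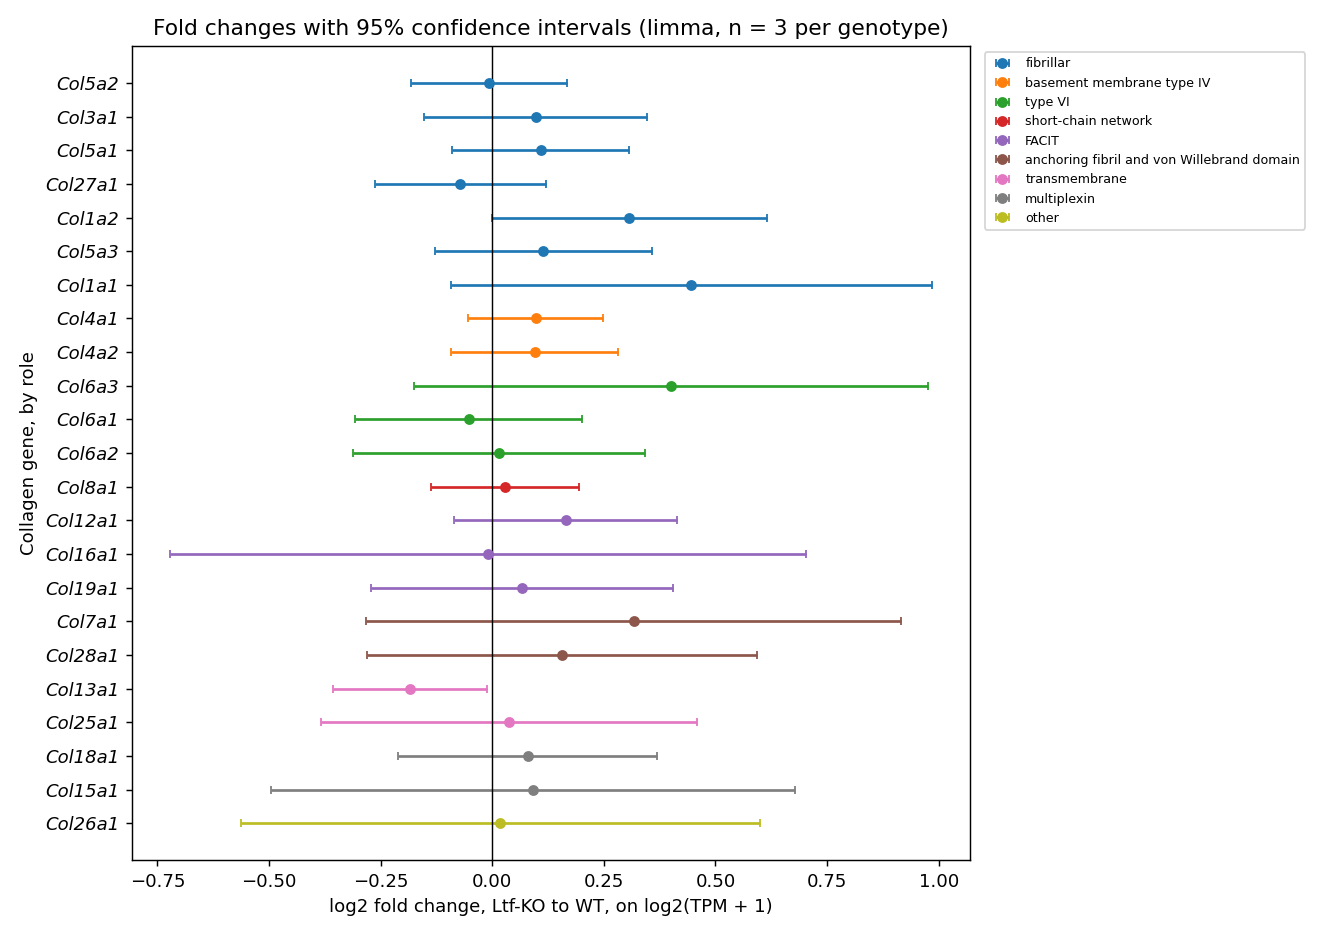
Log2 fold changes of *Ltf*-KO to WT on the log2(TPM + 1) scale for the 23 collagen genes tested, grouped by role, with bars for the 95% confidence interval from limma with 3 libraries per genotype. The interval of *Col13a1*, from -0.36 to -0.012, lies below 0, and each of the other 22 intervals includes 0.

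Fibrillar collagens made up 11 of the 44 genes, of which 7 were tested, 5 with a fold change above 0 and 2 below. *Col5a2* encodes a chain of type V collagen, which initiates fibrils and limits their diameter. It was the most abundant collagen gene, at 258, 271 and 289 TPM in WT and at 276, 293 and 246 TPM in *Ltf*-KO libraries. The *Ltf*-KO libraries held both ends of the range, and the log2 fold change was -0.0075 (95% confidence interval -0.18 to 0.17). It lay between -0.064, without *Ltf*-KO replicate 2, and 0.062, without *Ltf*-KO replicate 3, as single libraries were left out. *Col5a1*, which encodes the main partner chain of type V, was at 29.9, 27.8 and 24.1 TPM in WT and at 29.0, 30.5 and 28.5 TPM in *Ltf*-KO libraries. WT replicate 3 was the lowest for *Col5a1* while it was the second highest for *Col5a2*, and the ratio of *Col5a2* to *Col5a1* ran from 8.63 to 12.0 over the libraries. The least abundant type V gene, *Col5a3*, was at 5.29 to 6.35 TPM in WT and 5.72 to 7.01 TPM in *Ltf*-KO SCs.

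Type III collagen, encoded by *Col3a1*, forms thin fibrils alongside type I in muscle connective tissue. *Col3a1* was at 94.6, 96.6 and 88.0 TPM in WT and at 118, 93.3 and 89.8 TPM in *Ltf*-KO libraries. *Ltf*-KO replicate 1 stood above the other 5 libraries, which lay together, and the log2 fold change of 0.097 became -0.022 without it. Leaving out replicate 3 of WT gave 0.058, and leaving out replicate 3 of *Ltf*-KO gave 0.17. *Col27a1*, which encodes a fibrillar collagen known from cartilage, was at 20.7, 24.65 and 23.6 TPM in WT and at 21.9, 23.0 and 20.45 TPM in *Ltf*-KO libraries. The genotypes overlapped for *Col27a1*, whose log2 fold change was -0.071 (95% confidence interval -0.26 to 0.12). It was -0.14 without WT replicate 1, -0.021 without WT replicate 2, -0.11 without *Ltf*-KO replicate 2 and -0.028 without *Ltf*-KO replicate 3.

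Type I collagen, the main protein of most connective tissue, is assembled from 2 chains encoded by *Col1a1* and 1 encoded by *Col1a2*. *Col1a2* was at 13.3, 13.8 and 16.3 TPM in WT and at 19.8, 19.9 and 14.99 TPM in *Ltf*-KO libraries. *Ltf*-KO replicates 1 and 2 lay above every WT library and *Ltf*-KO replicate 3 lay within the WT range. The log2 fold change was 0.31 (95% confidence interval -0.00041 to 0.61, limma unadjusted p = 0.0502, adjusted p = 0.999). *Col1a1* was at 3.73, 4.98 and 5.91 TPM in WT and at 6.91, 9.32 and 5.05 TPM in *Ltf*-KO libraries. Again *Ltf*-KO replicates 1 and 2 were the highest and *Ltf*-KO replicate 3 lay among the WT libraries, and the log2 fold change was 0.45 (95% confidence interval -0.093 to 0.98, limma adjusted p = 0.999). It was 0.25 without *Ltf*-KO replicate 2. *Col1a2* exceeded *Col1a1* in every library, by a ratio of 2.13 to 3.57, and *Col3a1* exceeded *Col1a2* by a ratio of 4.69 to 7.11.

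Markers of other cell types were listed beside the type I genes, since a sort can leave a few other cells, and in bulk RNA fewer cells of a type and less RNA per cell cannot be told apart. The stated gates are against Sca1 and CD11b, which mark fibro-adipogenic, endothelial and myeloid cells, and for CD34 and α7-integrin. The antibodies listed in the paper are for CD31, CD45, Sca1 and α7-integrin, with none for CD11b or CD34. CD31 and CD45 mark endothelial cells and leukocytes. Of 12 fibroblast and fibro-adipogenic markers, 8 averaged 1 TPM or more, and the list summed to 89.5, 92.1 and 97.9 TPM in WT and 98.0, 107 and 94.2 TPM in *Ltf*-KO libraries. Its most abundant gene was *Gsn*, which many cells express, at 75.7 to 87.5 TPM. *Pdgfra*, which defines fibro-adipogenic progenitors, was at 1.00, 1.13 and 1.35 TPM in WT and at 1.42, 1.90 and 1.11 TPM in *Ltf*-KO libraries, and *Ly6a*, which encodes the Sca1 antigen that the sort excluded, was at 1.33 to 3.21 TPM. *Dpt* and *Pi16* were each at 0.21 TPM or less, with *Dpt* at 0 in *Ltf*-KO replicate 3. Of the 8 tested markers, *Gsn*, *Dcn* and *Pdgfra* were highest in *Ltf*-KO replicate 2, *Thy1* and *Cd248* in *Ltf*-KO replicate 1, and *Dpep1*, *Ly6a* and *Osr1* in *Ltf*-KO replicate 3. Of 8 endothelial markers 6 were at a mean of 1 TPM or more, with *Egfl7* the most abundant over the 6 libraries and *Cdh5* the most abundant over the WT libraries, and the list summed to 12.5, 9.57 and 21.6 TPM in WT and to 19.5, 20.5 and 10.8 TPM in *Ltf*-KO libraries. All 6 Schwann cell markers were at 1 TPM or more, led by *Ngfr*, and they summed to 23.5, 31.0 and 41.6 TPM in WT and to 33.1, 40.8 and 28.4 TPM in *Ltf*-KO libraries. The sums of the fibroblast, endothelial and Schwann lists were all highest in WT replicate 3 and *Ltf*-KO replicates 1 and 2. Most of the fibroblast sum came from *Gsn*, however, and without *Gsn* that sum was lower in WT replicate 3 than in *Ltf*-KO replicate 3. WT replicate 3 and *Ltf*-KO replicates 1 and 2 were also the highest for *Col1a1* and for the summed collagen level. Of the 10 most abundant collagen genes, they were highest for *Col5a2*, *Col18a1*, *Col4a1*, *Col4a2* and *Col1a2*. They were not the highest for *Col3a1*, *Col5a1*, *Col27a1*, *Col8a1* and *Col12a1*. WT replicate 3 was in fact the lowest library for *Col3a1*, *Col5a1* and *Col8a1*. The part of these markers in the collagen levels was not tested.

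The remaining lists had other patterns. Smooth muscle and pericyte markers, of which 5 of 9 averaged 1 TPM or more, summed to 522, 543 and 457 TPM in WT and to 589.8, 509 and 641 TPM in *Ltf*-KO libraries, nearly all from *Acta2*, a gene that cultured myoblasts also express, while *Kcnj8* was at 0 in *Ltf*-KO replicate 3. Tendon markers, 3 of 5 averaging 1 TPM or more, summed to 92.4, 82.2 and 91.8 TPM in WT and to 91.3, 86.0 and 78.0 TPM in *Ltf*-KO libraries, nearly all from *Scx*, while *Tnmd*, the marker of mature tendon cells, was at 0 in 3 libraries. Macrophage and leukocyte markers, 2 of 6 averaging 1 TPM or more with *Cd68* the most abundant, summed to 11.5, 6.01 and 4.46 TPM in WT and to 4.67, 4.69 and 3.59 TPM in *Ltf*-KO libraries, and *Adgre1* was at 0 in 4 libraries. Of the 40 markers tested, by limma 0 had an adjusted p under 0.05, 2 were higher at an unadjusted p under 0.05 (2.01% of all genes tested) and 0 were lower (1.78% of all genes tested). The 2 were *Pdgfrb*, a pericyte marker, and *Egfl7*. *Pdgfrb* was at 3.73, 3.89 and 4.71 TPM in WT and at 6.95, 7.51 and 4.80 TPM in *Ltf*-KO libraries, again with *Ltf*-KO replicates 1 and 2 highest. *Dcn* and *Lum* of the fibroblast list, *Fmod* of the tendon list and *Cspg4* of the pericyte list also stand in the lists of collagen partners and receptors.

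The other 4 fibrillar genes, *Col2a1*, *Col11a1*, *Col11a2* and *Col24a1*, were below a mean of 1 TPM. *Col2a1* and the type XI genes encode the fibrillar chains of cartilage and ranged from 0.04 to 1.17 TPM. *Col24a1* ranged from 0.16 to 0.60 TPM. The highest of these values were *Col11a2* in WT replicate 1 and *Col11a1*, at 1.02 TPM, in *Ltf*-KO replicate 1.

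**Figure D3:**
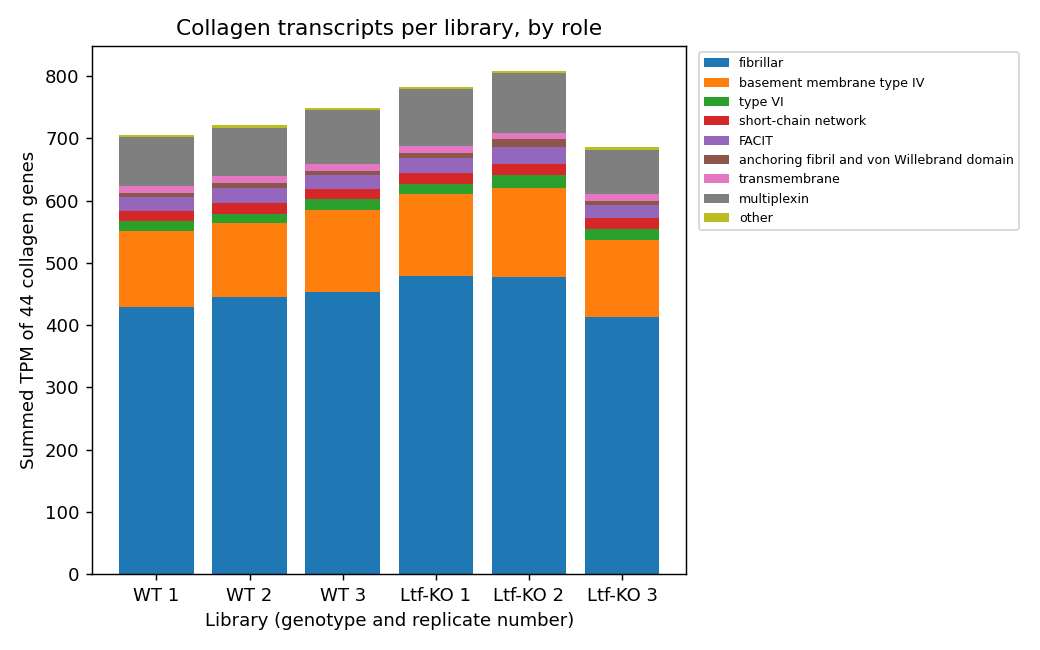
Summed TPM of the 44 collagen genes in each library, stacked by role, with bars starting at 0. The total runs from 686 TPM in *Ltf*-KO replicate 3 to 808 TPM in *Ltf*-KO replicate 2, and fibrillar collagens form the largest share in each library.

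Type IV collagen has 6 genes, of which *Col4a1* and *Col4a2* encode the chains found in nearly all basement membranes. *Col4a1* was at 75.9, 71.7 and 79.5 TPM in WT and at 78.6, 87.4 and 77.4 TPM in *Ltf*-KO libraries. *Ltf*-KO replicate 2 was the highest and the other 5 libraries lay close together. *Col4a2* was at 46.1, 46.45 and 50.8 TPM in WT and at 51.5, 55.9 and 46.3 TPM in *Ltf*-KO libraries, with the genotypes again overlapping. Their log2 fold changes were nearly equal, 0.097 for *Col4a1* (95% confidence interval -0.054 to 0.25) and 0.095 for *Col4a2* (95% confidence interval -0.091 to 0.28). Without *Ltf*-KO replicate 2 they were 0.043 and 0.032, while *Col4a1* was at 0.059 without WT replicate 2 and *Col4a2* at 0.16 without *Ltf*-KO replicate 3. The ratio of *Col4a1* to *Col4a2* varied little, from 1.53 to 1.67, with means of 1.59 ± 0.0547 in WT and 1.59 ± 0.0747 in *Ltf*-KO libraries (SD, n = 3). *Col4a3*, *Col4a4*, *Col4a5* and *Col4a6*, which encode the chains of specialised basement membranes such as that of the kidney glomerulus, were all below 1 TPM, with *Col4a5* the highest at 0.32 to 0.74 TPM and the other 3 at 0 to 0.22 TPM.

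The type IV genes lie in head-to-head pairs in GENCODE M21, an annotation of build GRCm38 in which all 44 genes were found by identifier and name. *Col4a1* (ENSMUSG00000031502) lies on the minus strand of chromosome 8 from 11198423 to 11312826 and *Col4a2* (ENSMUSG00000031503) on the plus strand from 11312805 to 11449287, so that the first exons overlap by 22 bases. The authors' counting is not stated to use strand, and reads from those 22 bases could not be told apart without it. *Col4a3* and *Col4a4* are separated by 71 bases and *Col4a5* and *Col4a6* are separated by 1308 bases, and the members of these pairs were all low. Another pair of abundant genes, *Col3a1* and *Col5a2*, face each other with their 3′ ends on chromosome 1, with 24614 bases between them, and their libraries ranked differently, with a ratio of *Col5a2* to *Col3a1* from 2.34 to 3.28.

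Type VI collagen forms beaded microfilaments next to the basement membrane of muscle fibres, from chains encoded by *Col6a1*, *Col6a2* and *Col6a3*. *Col6a3* was at 8.60, 4.76 and 9.81 TPM in WT and at 9.16, 11.8 and 9.54 TPM in *Ltf*-KO libraries. WT replicate 2 was low and the other 5 libraries lay together, and the log2 fold change of 0.40 (95% confidence interval -0.18 to 0.98) was 0.13 without WT replicate 2. *Col6a1* was at 5.74 to 6.50 TPM in WT and 5.14 to 6.72 TPM in *Ltf*-KO SCs. *Col6a2* was the lowest of the trio at 1.66 to 2.14 TPM, and the ratio of *Col6a1* to *Col6a2* ran from 2.40 to 3.75. The later type VI genes *Col6a4*, *Col6a5* and *Col6a6* were at 0 to 0.02 TPM, apart from *Col6a5* at 0.34 TPM in WT replicate 3 and 0.03 TPM in WT replicate 1.

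Among the short-chain network collagens, *Col8a1*, which is known from vessel walls and the cornea, was at 15.6, 17.3 and 15.5 TPM in WT and at 15.9, 16.1 and 17.6 TPM in *Ltf*-KO libraries. The genotypes overlapped nearly completely. *Col8a2* was at 0.06 to 0.16 TPM. *Col10a1*, the collagen of hypertrophic cartilage, was at 0.52 to 1.12 TPM, and its exons overlap those of *Nt5dc1* on the opposite strand, which was at 8.08 to 9.15 TPM, so without strand the reads of the shared stretch could not be told apart.

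The FACIT collagens do not form fibrils themselves but sit on the surface of fibrils. *Col12a1*, the FACIT of tendon and muscle connective tissue, was at 13.4, 12.7 and 12.3 TPM in WT and at 15.5, 15.9 and 12.2 TPM in *Ltf*-KO libraries. *Ltf*-KO replicates 1 and 2 lay above the WT libraries and *Ltf*-KO replicate 3 was the lowest of all 6, as in part for *Col1a2*. The log2 fold change was 0.16 (95% confidence interval -0.085 to 0.41), and it was 0.10 without *Ltf*-KO replicate 2 and 0.28 without *Ltf*-KO replicate 3. *Col16a1* was at 3.81, 6.78 and 4.85 TPM in WT and at 4.88, 7.74 and 3.18 TPM in *Ltf*-KO libraries, a spread within genotypes that exceeded the difference of their means. *Col19a1* was at 2.38 to 3.55 TPM in WT and 3.0 to 3.51 TPM in *Ltf*-KO SCs. The other 6, *Col9a1*, *Col9a2*, *Col9a3*, *Col14a1*, *Col20a1* and *Col22a1*, were below a mean of 1 TPM. *Col20a1* was the highest of these at 0.71 to 1.04 TPM, and its exons overlap those of an annotated transcript on the same strand, BX649560.1, at 0.40 to 1.19 TPM. *Col14a1*, the FACIT of fibroblasts, was at 0.13 to 0.32 TPM, and *Col22a1*, the FACIT of the myotendinous junction, at 0 to 0.01 TPM. The 3 type IX genes, of cartilage, were at 0 to 0.81 TPM.

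Transmembrane collagens stay anchored in the plasma membrane. *Col13a1*, which is found at the neuromuscular junction and at cell adhesions, was at 8.29, 7.81 and 8.25 TPM in WT and at 7.35, 6.55 and 7.19 TPM in *Ltf*-KO libraries. Every *Ltf*-KO library lay below every WT library. The mean was 8.12 ± 0.266 TPM in WT and 7.03 ± 0.423 TPM in *Ltf*-KO SCs (SD, n = 3), and the log2 fold change was -0.18 (limma unadjusted p = 0.0398, adjusted p = 0.999). The adjusted p lay between 0.946 and 1 over the alternatives in which *Col13a1* was tested, and the fold change between -0.21 and -0.14. *Col25a1*, which is needed for motor nerves to enter muscle, was at 2.50 to 4.06 TPM in WT and 2.72 to 3.89 TPM in *Ltf*-KO SCs. *Col17a1* and *Col23a1*, known from epithelia, were at 0.09 to 0.37 TPM.

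Multiplexins are basement membrane collagens with a trimmed C-terminal domain, which in *Col18a1* gives rise to endostatin. *Col18a1* was at 77.2, 74.5 and 85.7 TPM in WT and at 88.8, 94.7 and 69.3 TPM in *Ltf*-KO libraries. *Ltf*-KO replicates 1 and 2 were the highest and *Ltf*-KO replicate 3 the lowest, and the log2 fold change of 0.079 (95% confidence interval -0.21 to 0.37) was -0.010 without *Ltf*-KO replicate 2. It was 0.038 without WT replicate 2, 0.14 without WT replicate 3, 0.036 without *Ltf*-KO replicate 1 and 0.21 without *Ltf*-KO replicate 3. *Col15a1*, the multiplexin of muscle and capillary basement membranes, was at 1.16 to 2.50 TPM in WT and 1.39 to 2.71 TPM in *Ltf*-KO SCs.

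Of the remaining members, *Col7a1* encodes the anchoring fibrils of skin. It was at 5.27, 5.70 and 4.27 TPM in WT and at 6.08, 9.95 and 4.52 TPM in *Ltf*-KO libraries. *Ltf*-KO replicate 2 was far above the other libraries, and the log2 fold change of 0.32 was 0.047 without it and 0.54 without *Ltf*-KO replicate 3. *Col28a1*, a collagen with von Willebrand domains known from Schwann cells, was at 1.37 to 2.56 TPM in WT and 2.04 to 2.57 TPM in *Ltf*-KO SCs. *Col26a1*, of little known function, was at 2.91 to 3.85 TPM in WT and 2.32 to 5.38 TPM in *Ltf*-KO SCs.

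*Ltf*-KO replicate 2 was the highest of the 6 libraries for 12 of the 23 collagen genes tested, compared with 21.3% of all genes tested. WT replicate 3 was the lowest for 7 and *Ltf*-KO replicate 3 for 6 of the 23 genes, compared with 16.2% and 18.7% of all genes tested. The median deviation of the 23 genes from their mean over the libraries, on the log2(TPM + 1) scale, was -0.068, 0.0053 and -0.038 in WT and 0.038, 0.11 and -0.091 in *Ltf*-KO libraries, so that the highest and the lowest were both *Ltf*-KO libraries. Over all genes tested these medians lay between -0.014 and 0.0086. The median coefficient of variation of the 9 collagen genes from 10 to 100 TPM was 6.25% in WT and 9.35% in *Ltf*-KO libraries, beside 5.58% and 5.85% for all 6681 tested genes at that level. For the 13 genes from 1 to 10 TPM it was 19.8% and 14.2%, beside 14.1% in both genotypes for all 4884 genes.

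**Figure D4:**
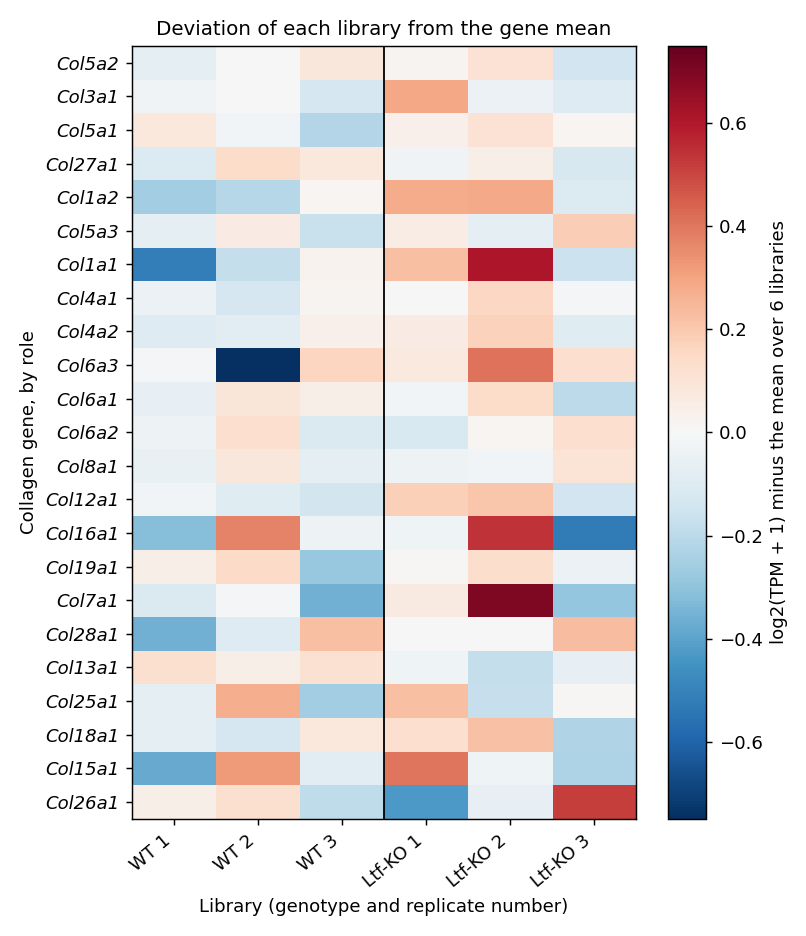
Deviation of each library from the mean over the 6 libraries on the log2(TPM + 1) scale, for the 23 collagen genes tested in order of role, with WT libraries left and *Ltf*-KO libraries right of the black line. Red marks values above and blue values below the gene's mean, and *Ltf*-KO replicate 2 is the highest library for 12 genes.

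Proteins that fold, process, bind or surround collagens were counted in the same fit, where by limma 0 had an adjusted p under 0.05. Over all genes tested 55.7% had a fold change above 0, the median was 0.011, 2.01% were higher in *Ltf*-KO SCs at an unadjusted p under 0.05, and 4.73% had every *Ltf*-KO library above every WT library. Among the 60 companion genes tested, this last pattern held for *Serpinh1*, *P4ha3*, *Loxl1*, *Ddr2*, *Adgrg1* and *Lama5*. Of 24 genes for folding and modification in the endoplasmic reticulum, 23 were tested, 17 with a fold change above 0 and 6 below, with a median of 0.040 and 0 at an unadjusted p under 0.05. The most abundant were *Sparc*, a collagen-binding matricellular protein, at 905 to 1010 TPM, *Serpinh1*, the collagen chaperone HSP47, at 566 to 598 TPM, *Ppib*, a proline isomerase, at 463 to 473 TPM, and *P4hb*, the shared subunit of prolyl 4-hydroxylases, at 303 to 332 TPM. Each of these was thus more abundant than any collagen gene. Of 15 genes for propeptide removal and crosslinking, 12 were tested, 8 above 0 and 4 below, with a median of 0.051. *Lox*, *Bmp1*, *Pcolce* and *Pxdn* led this list, and *Loxl1*, a lysyl oxidase, was the 1 gene at an unadjusted p under 0.05. *Loxl1* was at 9.63, 8.53 and 8.86 TPM in WT and at 11.8, 10.6 and 9.92 TPM in *Ltf*-KO libraries. All 3 *Ltf*-KO libraries lay above the WT libraries, and the log2 fold change was 0.23 (limma unadjusted p = 0.0297, adjusted p = 0.999).

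Of 14 collagen receptor genes, 7 were tested, all 7 with a fold change above 0 (55.7% of all genes tested) and a median of 0.085 (0.011 over all genes tested). The most abundant were *Itgb1*, the beta subunit of the collagen-binding integrins, at 373 to 415 TPM, and *Ddr1*, *Ddr2* and *Cspg4*. *Adgrg1*, an adhesion receptor for type III collagen, was at 6.11, 6.12 and 6.15 TPM in WT and at 6.79, 7.65 and 7.19 TPM in *Ltf*-KO libraries. The genotypes did not overlap, as for 4.73% of all genes tested in this direction, and the log2 fold change was 0.20 (limma unadjusted p = 0.0275, adjusted p = 0.999). *Calcr*, which binds type V collagen fragments on quiescent SCs, was at 0 to 0.07 TPM, and the collagen-binding integrin subunits *Itga1*, *Itga2*, *Itga10* and *Itga11* were at 0 to 1.99 TPM.

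Of 14 fibril-binding proteoglycans and matrix partners, 8 were tested, all 8 above 0 (55.7% of all genes tested) with a median of 0.11 (0.011 over all genes tested) and 0 at an unadjusted p under 0.05. *Fn1*, *Tnc*, *Bgn* and *Fbln2* were the most abundant. *Fbln2*, a fibulin, was at 39.6, 34.5 and 54.8 TPM in WT and at 62.0, 74.1 and 45.4 TPM in *Ltf*-KO libraries. As for *Col1a1*, *Ltf*-KO replicates 2 and 1 and WT replicate 3 were highest, and the genotypes overlapped. All 10 basement membrane partners were tested, with all 10 above 0 and a median of 0.072, beside the same 55.7% and 0.011 over all genes tested. The lowest of the 10 was *Agrn*, at 0.0019. With median-of-ratios scaling the values over all genes tested were 50.7% and 0.0013. The counts above 0 of the companion lists are given here without that scaling, which could turn fold changes as small as that of *Agrn*. In the list for folding and modification it could also turn those of *P4hb* (0.0034), *P3h2* (0.0070) and *Ppib* (0.0086). *Lamb1*, *Hspg2*, *Lamc1* and *Nid1* led the list, and *Lama5*, a laminin chain, was at 19.5, 16.9 and 19.7 TPM in WT and at 21.9, 22.6 and 20.5 TPM in *Ltf*-KO libraries. Every *Ltf*-KO library was above every WT library for *Lama5*, as for 4.73% of all genes tested, and its log2 fold change was 0.20 (limma unadjusted p = 0.0318, adjusted p = 0.999). The summed levels of the lists for crosslinking, receptors, proteoglycans and basement membrane partners were each highest in WT replicate 3 and *Ltf*-KO replicates 1 and 2. These 3 libraries also had the highest sums of endothelial and Schwann markers and, with *Gsn* included, of fibroblast markers. The part of those markers was not tested. Basement membrane partners summed to 437 TPM in WT replicate 3, close to 435 TPM in WT replicate 2 and 434 TPM in *Ltf*-KO replicate 3. Receptor genes summed to 565, 578 and 585 TPM in WT and to 619, 620.2 and 572 TPM in *Ltf*-KO libraries. Most of the receptor sum came from *Itgb1*, and without *Itgb1* the sum was lowest in WT replicate 3. The 3 companion genes at an unadjusted p under 0.05 numbered 7 when *Ltf*-KO replicate 3 was left out, and 1 when WT replicate 2, *Ltf*-KO replicate 1 or *Ltf*-KO replicate 2 was.

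Many of the 44 genes have exons whose lengths follow the repeat of the triple helix. In GENCODE M21, taking the transcript with the longest coding sequence of each gene and leaving out the first and the last coding exon, 1224 of 1917 coding exons (63.8%) had a length that is a multiple of 9 bases, the length of 1 repeat of 3 residues. Among other protein-coding genes this share was 13.7% of 157316 exons. The most common length was 54 bases, for 24.5% of the collagen exons and 0.444% of the others. In the 11 fibrillar genes the share that was a multiple of 9 ran from 76.6% in *Col5a1* to 90.0% in *Col1a2*, and in the other genes with such exons from 22.2% in *Col12a1*, a large protein with a short triple helix, to 80.8% in *Col23a1*. *Col8a1*, *Col8a2* and *Col10a1* have 2 coding exons each and therefore none in this count.

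Promoter windows from RefSeq on GRCm38.p6, of 300 bases from 250 before to 50 after a gene's start, were found for 35 of the 44 genes, with 38 windows. GGGCGG, the GC box, was present on either strand in 23 of these 38 windows (60.5%), compared with 35.7% of all 32851 windows. TATAAA was present in 5 (13.2%, compared with 13.6%) and CCAAT in 13 (34.2%, compared with 37.4%). The median GC content was 59.8%, compared with 52.7% over all windows. The share of windows with GGGCGG was 61.9% for collagen genes tested and 58.8% for those under 1 TPM. The 250 bases upstream of the start are shown for the 2 most abundant collagen genes with a window and no annotated exon in that stretch, and for *Col13a1*, the gene with the lowest p. Capitals mark TATAAA and GGGCGG, the latter as CCGCCC where it lies on the other strand. The stretches lie at chr1:45311288-45311537 on the plus strand for *Col3a1*, at chr2:27886175-27886424 on the plus strand for *Col5a1* and at chr10:61979109-61979358 on the minus strand for *Col13a1*.
Col3a1: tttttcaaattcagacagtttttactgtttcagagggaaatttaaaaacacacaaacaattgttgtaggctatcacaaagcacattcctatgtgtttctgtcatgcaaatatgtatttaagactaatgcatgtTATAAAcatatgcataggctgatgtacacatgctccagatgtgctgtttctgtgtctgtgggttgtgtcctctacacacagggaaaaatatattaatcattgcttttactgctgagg
Col5a1: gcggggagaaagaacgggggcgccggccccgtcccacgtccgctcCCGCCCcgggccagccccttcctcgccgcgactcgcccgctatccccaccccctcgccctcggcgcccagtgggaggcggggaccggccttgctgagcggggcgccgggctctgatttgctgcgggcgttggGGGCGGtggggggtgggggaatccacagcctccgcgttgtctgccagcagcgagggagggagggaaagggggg
Col13a1: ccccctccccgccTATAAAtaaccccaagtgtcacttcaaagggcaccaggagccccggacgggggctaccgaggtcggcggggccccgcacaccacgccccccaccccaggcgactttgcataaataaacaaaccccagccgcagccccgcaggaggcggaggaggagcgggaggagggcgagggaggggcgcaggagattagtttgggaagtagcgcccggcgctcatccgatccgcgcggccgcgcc
The window of *Col3a1* has a GC content of 37.7% and a TATAAA at position -117 from the start, that of *Col5a1* has 75.0% and GGGCGG on both strands, and that of *Col13a1* has 68.0% and a TATAAA at position -237. A match of these letters is a description of the window and was not tested for binding.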

How the data were processed

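The authors deposited TPM values for 55416 genes in 6 libraries, 3 of WT and 3 of *Ltf*-KO SCs, whose labels give the genotype and a replicate number. The submitters' processing notes name build GRCm39, and the aligner, the counting tool and the strand setting are not given in the sources used here. TPM keeps no read depth, so precision was judged from the spread between libraries. Genes averaging 1 TPM or more were compared on log2(TPM + 1) with limma 3.58.1 in R 4.3.3 (lmFit, eBayes with a trend, two-sided), with no covariate, with Benjamini-Hochberg adjustment over all 12956 genes tested. The fit was tested on simulated data. Gene structure came from GENCODE M21 and promoter windows from RefSeq, both on GRCm38, and were joined to the table by identifier or name only.

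Collagen genes were all accounted for. The 10 most abundant and any at an unadjusted p under 0.05 were given with every library's value, and of each companion list up to 4 of the most abundant genes and any at an unadjusted p under 0.05 were named. Other genes given with values, among them *Col1a1*, *Col6a3*, *Col7a1*, *Col16a1*, *Fbln2*, *Calcr* and the integrin subunits, were chosen after their values were seen. The members and lists were chosen with earlier results of these data known. Alternatives were a pseudocount of 0.1, no filter, a minimum mean of 10 TPM, median-of-ratios scaling, quantile normalization, the replicate number as a block, no trend, each library left out in turn and, for the summed level, *Col1a1*, *Col1a2* and *Col3a1* left out. No method for read counts was used here.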

Additional observations from a re-analysis of the deposited data

How the results depend on the processing

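By limma 0 collagen genes had an adjusted p under 0.05 as reported and under each of the alternatives run, while 0 to 6 of all genes tested had one with a library left out (6 without WT replicate 2, 1 without WT replicate 3, and 5, 2 and 4 without *Ltf*-KO replicates 1, 2 and 3). Of all genes tested, 490 had an unadjusted p under 0.05, and 890 with no filter, which tests more genes, and 281 with a minimum mean of 10 TPM, which tests fewer. The 1 collagen gene at an unadjusted p under 0.05 became 2 with a pseudocount of 0.1, 0 with no filter and 0 to 4 with a library left out. With a minimum mean of 10 TPM the count was also 1. That was another gene, since *Col13a1*, with a mean of 7.57 TPM, was not tested there. Of the 10 genes tested there, *Col1a2* had the lowest unadjusted p as reported (limma, 0.0502), with a log2 fold change of 0.31. Collagen genes with a fold change above 0 numbered 18 of 23, 8 of 10 with that minimum, 26 of 44 with no filter, and 15 to 19 with a library left out. The median log2 fold change of 0.091 was 0.013 with no filter, where all 44 genes enter. The 3 companion genes became 5 with no filter and 1 to 7 with a library left out. The ratio of summed collagen TPM was 1.012 to 1.096 with a library left out and 1.03 without *Col1a1*, *Col1a2* and *Col3a1*. Among the 490 genes, the part lower in *Ltf*-KO SCs was 46.9%, against 55.8% of those found with median-of-ratios scaling and 60.04% of those with quantile normalization. The cause was not tested.

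Replicate numbers are shared by the genotypes. Across genes, the deviations from the genotype means of libraries with equal numbers correlated at -0.041, -0.058 and -0.088. Libraries with unequal numbers were not compared, so these values do not settle whether equal numbers share a preparation. With the replicate block, 0 collagen genes, 1 companion gene and 380 of all genes had an unadjusted p under 0.05.

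Log2 fold changes crossed 0 with a library left out for *Col3a1* (-0.022 to 0.17), *Col5a2* (-0.064 to 0.062), *Col6a1* (-0.13 to 0.032), *Col6a2* (-0.043 to 0.081), *Col8a1* (-0.016 to 0.077), *Col15a1* (-0.088 to 0.27), *Col16a1* (-0.28 to 0.25), *Col18a1* (-0.010 to 0.21), *Col19a1* (-0.060 to 0.15), *Col25a1* (-0.083 to 0.18) and *Col26a1* (-0.23 to 0.24). *Col6a2* was -0.0088 with quantile normalization. The cause was not tested.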
